A study of Mus musculus with 6 samples.

Results

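Heat shock proteins and the J-domain (DNAJ) proteins that work with them were examined in cultured primary mouse hepatocytes, the main metabolic cells of the liver, given LRG1 protein or phosphate-buffered saline (PBS). Genes were chosen by symbol, from the Hspa, Hspb, Hspd, Hspe, Hsph, Hsp90, Dnaja, Dnajb and Dnajc series, with Hsf1, Hsf2, Bag1 to Bag5, Stip1, Ahsa1, Cryab and Chordc1 added. The rule matched 83 of 22609 gene rows, and 69 of them had 10 or more counts in at least 3 libraries and are described here. All 69 were among the 12301 genes tested. The LRG1 group was 3 samples of hepatocytes exposed to 20 µg/mL LRG1, leucine-rich alpha-2-glycoprotein 1, a secreted glycoprotein, for 16 h. The PBS group was 3 samples given PBS for the same 16 h. Hepatocytes of both groups came from wild-type male C57BL/6 mice at the age of 4 months. Whether the 3 samples of a group had separate mice or cultures as their source is not in the labels, and p-values may therefore reflect technical spread only.

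Chaperones of the HSP70 class bind unfolded stretches of protein in a cycle driven by ATP. J-domain proteins deliver the substrate and start ATP hydrolysis, and nucleotide exchange factors of the HSP110 and BAG classes release it. HSP90 takes over partly folded clients such as kinases and steroid receptors, small heat shock proteins hold unfolding proteins in a soluble state, and the transcription factor HSF1 raises many of these genes when unfolded protein builds up. Hepatocytes, which make most plasma proteins, rely strongly on the chaperones of the endoplasmic reticulum (ER).

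Gene counts came to 18625748 to 23036332 per library. The 8 hepatocyte markers summed to 19790 to 20595 CPM (counts scaled to the library total) with LRG1 and 20415 to 21759 CPM with PBS, and albumin made up most of it. Of the 8, 4 (50%) were lower with LRG1 and none higher, in the test described below. Among all tested genes 25.8% were lower and 25.5% higher. One of the 4 was Cps1, a urea-cycle enzyme, at 7.04 to 10.2 CPM with LRG1 and 33.1 to 38.3 CPM with PBS. Summed markers of other cells ran from 365 to 401 CPM in LRG1 libraries and 381 to 445 CPM in PBS libraries for 7 macrophage genes. Of these 7, 1 was higher and 1 lower (14.3% each). The 6 endothelial genes summed to 33.6 to 37.8 CPM with LRG1 and 39.8 to 42.3 CPM with PBS, and 2 (33.3%) were lower. The 7 genes of stellate cells and fibroblasts summed to 149 to 160.1 CPM with LRG1 and 50.3 to 56.8 CPM with PBS, or to 44.7 to 46.5 CPM with LRG1 and 41.1 to 43.1 CPM with PBS when Col1a1 was left out. The 5 cholangiocyte genes summed to 4325 to 4643 CPM with LRG1 and 4446 to 4630 CPM with PBS, nearly all of it Spp1, and the other 4 to 86.8 to 90.5 CPM with LRG1 and 69.0 to 74.3 CPM with PBS. Among these 4, Sox9 was higher, and Krt19 was lower, at 3.09 to 3.53 CPM with LRG1 and 15.6 to 21.7 CPM with PBS. Of the 6 tested genes of stellate cells and fibroblasts, 2 (33.3%) were higher, Acta2 and Col1a1, and none was lower. Lrat, a stellate cell marker, had 21 counts in all and was not tested. It was at 0 in LRG1 replicates 1 and 3 and at 0.043 CPM in replicate 2, against 0.56, 0.22 and 0.27 CPM with PBS. No marker was at 0 in all 6 libraries. The part of other cells in the results that follow was not tested. In bulk RNA, fewer cells of a type and less RNA per cell cannot be told apart.

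Chaperone genes changed in both directions with LRG1, mostly by small amounts. Of the 69 genes, 12 (17.4%) were higher and 14 (20.3%) lower with LRG1 in edgeR's quasi-likelihood test at an adjusted p under 0.05, against 25.5% higher and 25.8% lower among all tested genes. Together 26 genes passed, 37.7% of the 69, where 51.4% of all tested genes did. With total count scaling the split was 17 higher and 13 lower, and without PBS replicate 2 it was 18 higher and 13 lower. Few of the changes were large. Only 4 of the 69 (5.8%) passed and differed by 1.5-fold or more, against 18.1% of all tested genes, and 55 (79.7%) differed by less than 1.2-fold, against 60% of all tested genes. The median log2 fold change of the 69 was -0.02 and of all tested genes 0.01. LRG1 and PBS libraries did not overlap for 37 of the 69 genes (53.6%), against 57.6% of all tested genes. Among the 35 chaperone genes at or above their own median level 18 (51.4%) passed, against 62.3% of the 3642 tested genes at or above that level. The summed level of all 69 genes was 10493 ± 73.4 CPM with LRG1 and 10762 ± 131 CPM with PBS (SD, n = 3 per group), without overlap between the groups, and Hsp90ab1, Hspa5, Hspa9, Hsp90b1 and Hspa4 held 53.9% of it.

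Levels of different genes were compared per kilobase of exon. Hsp90ab1 led in both groups, followed by Hspa5 and Hspa9. Hspa5 stood at 236 ± 6.03 CPM per kilobase with LRG1 and 265 ± 9.29 CPM per kilobase with PBS, and Hspa9 at 173 ± 5.18 CPM per kilobase with LRG1 and 212 ± 3.54 CPM per kilobase with PBS (SD, n = 3 each). Bag1 ranked 5 of 69 with LRG1 and 7 with PBS, Hspa4 ranked 7 with LRG1 and 10 with PBS, and Hspb8 ranked 9 with LRG1 and 4 with PBS. The other places among the first 10 in both groups were held by Hsp90b1, Hspb1, Stip1 and Dnaja2.

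**Figure D1:**
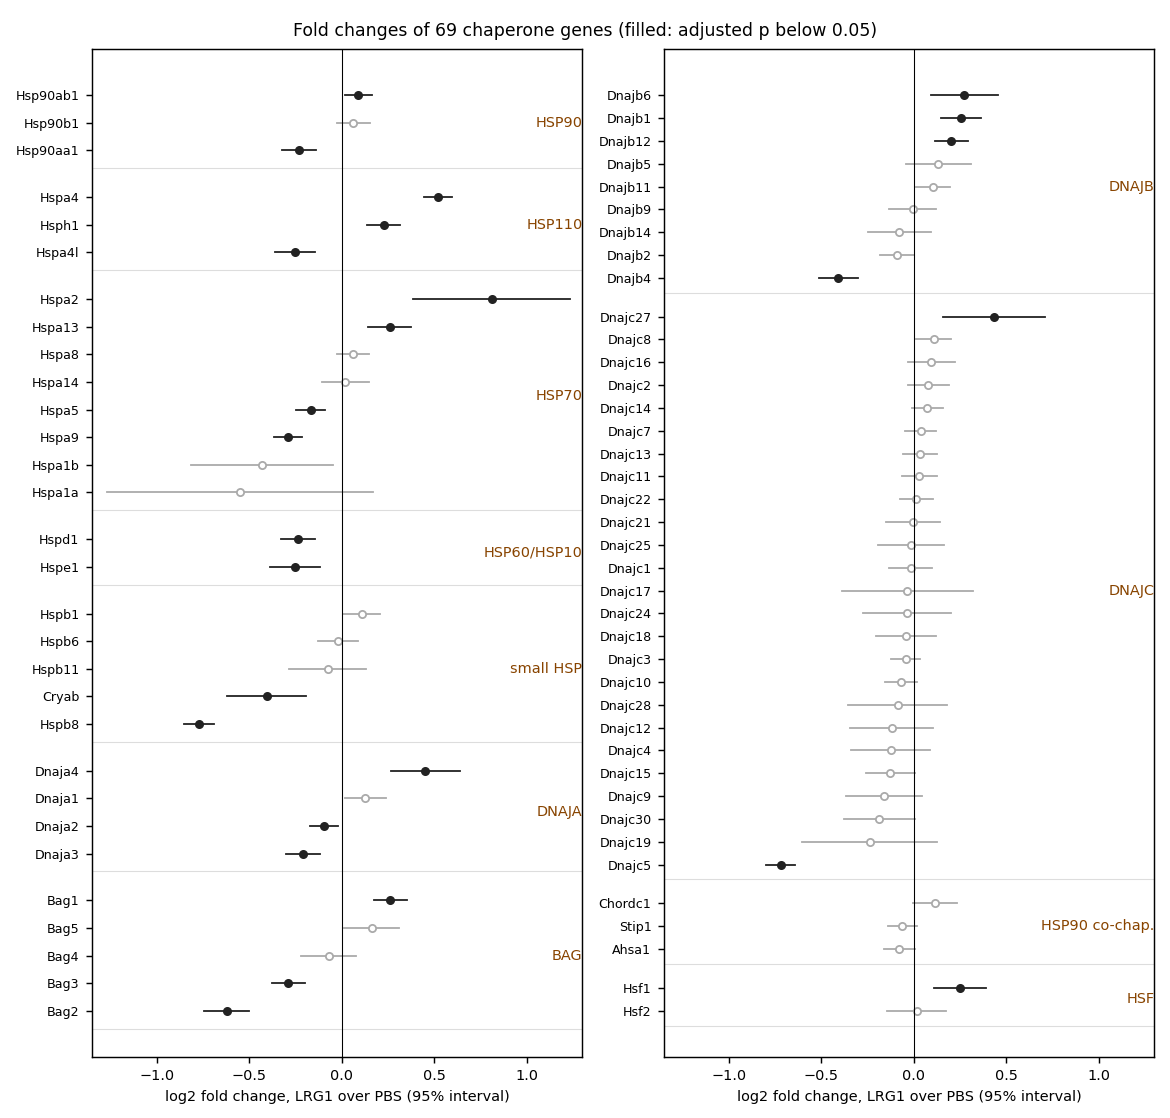
Log2 fold change of each of the 69 genes, LRG1 over PBS, with its 95% interval derived from edgeR's quasi-likelihood F statistic, grouped by chaperone class. Filled points passed an adjusted p of 0.05. Within the HSP90, HSP110, HSP70, DNAJA, DNAJB, DNAJC and BAG classes some genes were higher and others lower, from -0.77 for Hspb8 to 0.81 for Hspa2 over all classes.

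Many chaperone genes have processed pseudogenes or close copies, and alignments that were not unique stand apart in the deposited counts, assigned to no gene. Of the stretches of 50 bases, the read length, in each gene's GENCODE M21 transcripts, the share found exactly in a gene or pseudogene at another locus was 0 for 38 of the 69 genes and over 10% for 10 of them. These 10 were Hspa1b (62.3%) and Hspa1a (60.4%), which are near copies of each other, Hspb1 (50.1%), Hsp90aa1 (47.5%), Hspd1 (39.7%), Hspa8 (37.0%), Hspe1 (18.4%), Dnajb6 (17.7%), Dnajc17 (13.9%) and Dnaja1 (11.6%). Pseudogenes alone held over 10% in 7 genes, and at least 1 pseudogene shared a stretch with 29 of the 69 genes. Levels and fold changes of these 10 genes are uncertain for that reason. Without them 11 genes were higher and 11 lower. Dnaja4 shares 44.1% of its exon bases with Wdr61 on the opposite strand, and Dnajc30 26.3% with Bud23. Dnajc14 shares 19.1% with Ormdl2 and Tmem198b, Hspa1a 19.0% with Gm20481 and Cryab 17.0% with Hspb2. Overlaps of 14.8% for Bag4 and 10.3% for Hsp90b1, and smaller ones for further genes, were found too. The strand setting of the counting is not known.

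The HSP90 genes were abundant and moved little. Hsp90ab1, the constitutive cytosolic HSP90, was the most abundant of the 69 per length of exon in both groups, at 928 ± 4.65 CPM per kilobase with LRG1 and 872 ± 13.9 CPM per kilobase with PBS (SD, n = 3 each). It had 2798, 2774 and 2775 CPM in LRG1 libraries, against 2569, 2648 and 2631 CPM in PBS libraries. The LRG1 libraries lay above the PBS libraries by 1.06-fold (log2 fold change 0.09, SE 0.036, adjusted p = 0.0437), and the call was lost under 7 of 15 alternatives, where the adjusted p reached 0.122. Hsp90aa1, the stress-inducible cytosolic form, had 134, 141 and 143 CPM in LRG1 libraries, against 170.3, 168 and 152 CPM in PBS libraries. It was 1.17-fold lower (log2 fold change -0.23, SE 0.045, adjusted p = 0.000154), and 47.5% of its 50-base stretches have a copy in a pseudogene. Hsp90b1, the HSP90 of the ER, did not pass, at 616, 618 and 636 CPM in LRG1 libraries, against 582, 641 and 569 CPM in PBS libraries (95% interval of the log2 fold change -0.03 to 0.15). PBS replicate 2 lay above all LRG1 libraries, the other PBS libraries below them. When PBS replicate 2 was left out, Hsp90b1 was higher (log2 fold change 0.12, adjusted p = 0.017).

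Stip1, Ahsa1 and Chordc1, which bind HSP90, did not pass the test. Stip1, which links HSP70 to HSP90, had 207, 204 and 197 CPM in LRG1 libraries, against 210.3, 209.8 and 215 CPM in PBS libraries, a narrow gap between groups that did not overlap (adjusted p = 0.179). Ahsa1, the activator of the HSP90 ATPase, had a log2 fold change of -0.08 with an interval of -0.16 to 0.0049, and Chordc1, an HSP90-binding protein, one of 0.11 with an interval of -0.0037 to 0.23. Chordc1 passed when PBS replicate 2 was left out (log2 fold change 0.17, adjusted p = 0.0219).

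Among the 8 HSP70 genes 2 rose, 2 fell and 4 were not called, a share called (50%) near the 51.4% of all tested genes. Hspa5 (BiP), the HSP70 of the ER, had 993, 977 and 1027 CPM in LRG1 libraries, against 1099.7, 1168 and 1100.4 CPM in PBS libraries. All LRG1 libraries were below all PBS libraries, by 1.12-fold (log2 fold change -0.17, SE 0.038, adjusted p = 0.000761). Hspa9 (mortalin), the HSP70 of the mitochondrial matrix, was lower by more, at 721, 763 and 756 CPM in LRG1 libraries, against 922, 897 and 925 CPM in PBS libraries (log2 fold change -0.29, SE 0.037, adjusted p = 5.15e-07). Hspa13, an ER-associated HSP70 without a substrate-binding domain, had 63.8, 66.2 and 74.8 CPM in LRG1 libraries, against 58.2, 56.3 and 56.4 CPM in PBS libraries and was 1.2-fold higher (log2 fold change 0.26, adjusted p = 0.000445). Its highest value, in LRG1 replicate 3, stood apart from the other LRG1 libraries. Hspa8, the constitutive cytosolic HSP70, had 323, 303 and 289 CPM in LRG1 libraries, against 300.2, 289 and 288 CPM in PBS libraries, with overlapping groups (log2 fold change 0.06, interval -0.03 to 0.15).

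The stress-inducible HSP70 genes were scarce. Hspa1a had 12, 9 and 9 counts in LRG1 replicates 1 to 3 and 14, 12 and 14 in PBS replicates 1 to 3, and Hspa1b had 51, 57 and 36 counts with LRG1 and 59, 62 and 55 with PBS. For both genes every LRG1 library was below every PBS library in CPM, and neither passed (adjusted p = 0.195 for Hspa1a and 0.0545 for Hspa1b, with log2 fold changes of -0.55 and -0.43). Over 60% of their 50-base stretches are shared, chiefly between these 2 genes, so that their level is uncertain. Hspa1a was also the gene closest to the lower limit of the count rule, which it met in 4 libraries, LRG1 replicate 1 and PBS replicates 1 to 3. It was thus kept through its PBS counts. Hspa2, an HSP70 best known from male germ cells, was also scarce, at 2.94, 3.58 and 2.82 CPM in LRG1 libraries, against 2.28, 1.40 and 1.65 CPM in PBS libraries. Its fold change was the highest of the 69 genes, 1.75-fold (log2 fold change 0.81, SE 0.2, adjusted p = 0.00199), on 59, 83 and 56 counts with LRG1 and 45, 26 and 31 counts with PBS.

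The exchange factors that recharge HSP70 went in opposite directions. Hspa4, a constitutive HSP110, had the smallest p of the 12 higher genes. It had 610.4, 632 and 636 CPM in LRG1 libraries, against 438, 430.2 and 442 CPM in PBS libraries. Every LRG1 library exceeded every PBS library, a 1.43-fold difference (log2 fold change 0.52, SE 0.037, adjusted p = 2.15e-11). Hsph1, the heat-inducible HSP110, was 1.17-fold higher, at 127, 131 and 135 CPM in LRG1 libraries, against 108, 115 and 113 CPM in PBS libraries (log2 fold change 0.23, adjusted p = 0.000105). Hspa4l, the remaining HSP110, fell, with 58.9, 61.9 and 56.2 CPM in LRG1 libraries, against 69.0, 74.0 and 68.4 CPM in PBS libraries (log2 fold change -0.25, adjusted p = 0.00023). Summed over the class, HSP110 stood at 816 ± 17.7 CPM with LRG1 and 619 ± 4.35 CPM with PBS (SD, n = 3 each), most of it Hspa4.

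BAG proteins bind the HSP70 nucleotide-binding domain, each with a different partner. Bag1, which links HSP70 to the proteasome, had 174, 165 and 176 CPM in LRG1 libraries, against 137, 150.4 and 142 CPM in PBS libraries, without overlap, and was 1.2-fold higher (log2 fold change 0.26, adjusted p = 1.99e-05). Bag2, an inhibitor of the ubiquitin ligase CHIP, had 28.9, 30.2 and 27.8 CPM in LRG1 libraries, against 45.7, 43.5 and 44.8 CPM in PBS libraries. This was 1.54-fold lower (log2 fold change -0.62, SE 0.059, adjusted p = 4.48e-09), one of the 4 called differences of 1.5-fold or more. Bag3, a partner of HSPB8 in the autophagy of damaged proteins, was 1.22-fold lower, with 108, 107 and 101 CPM in LRG1 libraries, against 131, 123 and 131 CPM in PBS libraries (log2 fold change -0.29, adjusted p = 5.41e-06). Bag4 (log2 fold change -0.07) and Bag5 (0.16, adjusted p = 0.0634) did not pass. Bag5 passed with total count scaling (adjusted p = 0.0427) and when LRG1 replicate 1 was left out (adjusted p = 0.0399).

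Among the small heat shock proteins, Hspb8 had the lowest fold change of the 69 genes. It stood at 172, 181 and 173 CPM in LRG1 libraries, against 302, 303 and 294 CPM in PBS libraries, and the libraries of a group lay close together. LRG1 libraries were 1.71-fold lower (log2 fold change -0.77, SE 0.039, adjusted p = 4.1e-14), and every alternative gave a log2 fold change between -0.80 and -0.76. Cryab, the alpha-B crystallin, was lower as well, with 11.7, 9.33 and 11.2 CPM in LRG1 libraries, against 15.1, 14.8 and 12.7 CPM in PBS libraries (log2 fold change -0.41, adjusted p = 0.00208). Hspb1 (HSP25 in mice), which shares 50.1% of its stretches with copies such as the pseudogene Hsp25-ps1, had 117, 118 and 122 CPM in LRG1 libraries, against 107, 119.8 and 104 CPM in PBS libraries and did not pass (log2 fold change 0.11, adjusted p = 0.0692). When its highest PBS library, replicate 2, was left out, it was higher (log2 fold change 0.17, adjusted p = 0.00426), and it also passed with total count scaling (adjusted p = 0.0419) and with no filter on low counts (adjusted p = 0.0447). Hspb6 and Hspb11 did not pass either. Hspb8 made up most of the class difference, which was 379 ± 4.01 CPM with LRG1 and 499.7 ± 11.1 CPM with PBS in summed level (SD, n = 3 each).

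**Figure D2:**
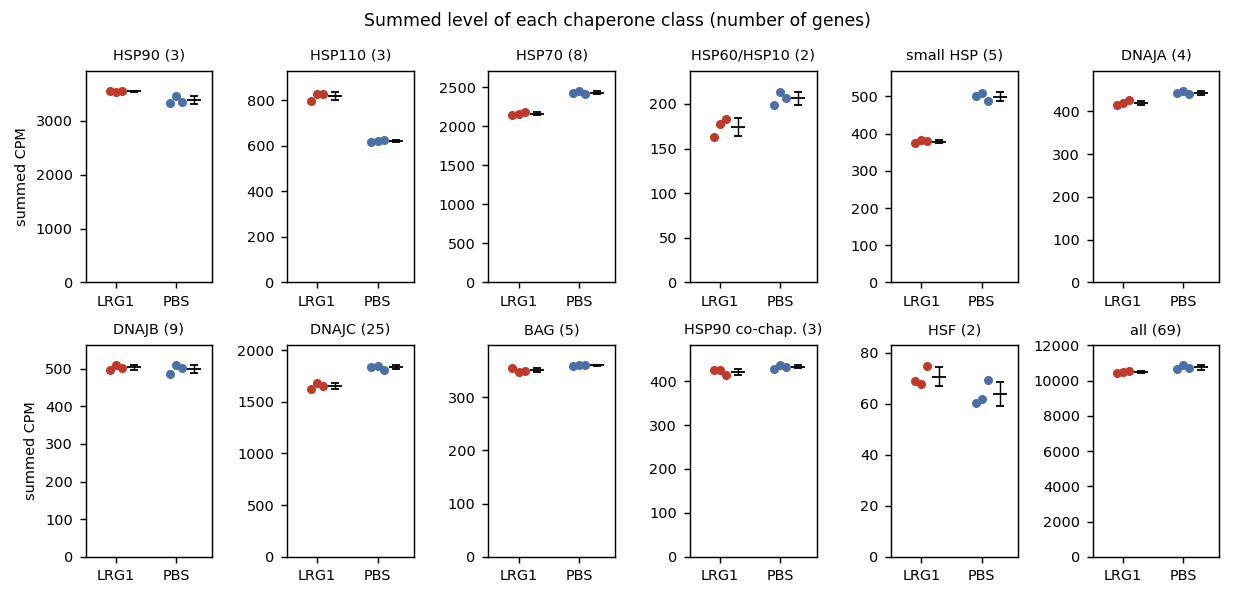
Summed CPM of the tested genes of each chaperone class, LRG1 libraries left and PBS libraries right, 1 point per library, with the mean and SD beside the points. The number of genes is in brackets. HSP110 was higher with LRG1 (816 against 619 CPM) and the small HSP, HSP70 and DNAJC sums were lower, while the HSP90 sum was 3545 against 3377 CPM.

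The mitochondrial chaperonin genes fell together. Hspd1 (HSP60) and Hspe1 (HSP10) encode the barrel and the lid of the folding chamber of the mitochondrial matrix, and they lie head to head. A stretch from between the start of Hspe1 and a start of Hspd1 is shown because it lies before both. It holds heat shock elements, the binding motif of HSF1. RefSeq gives Hspd1 a further start, and the 250 bases before that start hold no match to the motif described next. The motif searched, on both strands of the 250 bases before the start, was GAA, TTC and GAA or, as its reverse complement, TTC, GAA and TTC, with 2 free bases between neighbouring triplets. Capitals mark the matches, of which 2 overlap in Hspd1. The sequence, from RefSeq on GRCm38.p6, lies at chr1:55088042-55088092 on the minus strand, with Hspd1 to its right.
Hspd1-Hspe1: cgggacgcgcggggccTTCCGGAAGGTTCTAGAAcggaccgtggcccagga
Dnajb6, which encodes a J-domain protein that keeps aggregation-prone proteins soluble, holds the motif too, at chr5:29735839-29735889 on the plus strand.
Dnajb6: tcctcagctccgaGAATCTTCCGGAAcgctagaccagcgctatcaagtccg
Of 54 of the 69 genes with a promoter entry, Hspd1, Hspe1 and Dnajb6 held the motif (3 of 54), against 0.514% of all 27025 genes with an entry. The 15 genes without an entry, among them Hsp90aa1, Hsp90ab1, Hspa8, Hspa9, Cryab and Hsf1, were not searched. Hspd1 and Hspe1 share the same site. A looser motif, GAA and TTC in either order with 2 free bases between them, was held by 13 of the 54, against 14.5% of all genes with an entry. Hspa1a, Hspa1b, Hspb1 and Hsph1 are among these 13 and did not match the stricter motif in the 250 bases searched. These matches are a description of the letters only.

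Hspd1 had 133, 146 and 149.6 CPM in LRG1 libraries, against 164, 173 and 168 CPM in PBS libraries, and all LRG1 values were below all PBS values (log2 fold change -0.24, SE 0.045, adjusted p = 0.000108). Hspe1 had 30.3, 31.2 and 33.5 CPM in LRG1 libraries, against 35.1, 39.6 and 38.5 CPM in PBS libraries, also without overlap (log2 fold change -0.25, SE 0.065, adjusted p = 0.00217). Both were lower by nearly the same fraction, 1.18-fold and 1.19-fold, and both are among the genes with copies elsewhere. Dnajb6, with the same motif, went the other way and was 1.21-fold higher, at 14.0, 14.9 and 14.9 CPM in LRG1 libraries, against 11.5, 12.0 and 12.7 CPM in PBS libraries (log2 fold change 0.27, adjusted p = 0.0122). Dnaja3 (TID1), the main J-domain partner of Hspa9 in the matrix, fell with them, with 85.6, 88.0 and 89.9 CPM in LRG1 libraries, against 98.0, 104 and 103 CPM in PBS libraries (log2 fold change -0.21, adjusted p = 0.000315).

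Of the 9 mitochondrial genes, 4 were lower (Hspa9, Hspd1, Hspe1 and Dnaja3), none was higher and 5 did not pass. The share called was 44.4%, against 51.4% of all tested genes, of which 25.8% were lower. The median log2 fold change was -0.21, beside 0.01 for all tested genes. Dnajc15 and Dnajc19, J-domain proteins of the inner-membrane import motor, had 26.6, 25.6 and 26.3 CPM and 2.89, 2.85 and 3.02 CPM with LRG1, against 28.7, 28.0 and 28.9 CPM and 3.95, 3.66 and 2.71 CPM with PBS. Neither passed (adjusted p = 0.106 and 0.269), though the Dnajc15 groups did not overlap. Dnajc11, which is tied to cristae organisation, was close to even, at 99.7, 107 and 97.2 CPM in LRG1 libraries, against 96.0, 99.3 and 103 CPM in PBS libraries. Dnajc28 and Dnajc30 also did not pass (log2 fold changes -0.09 and -0.19), and Dnajc30 passed when LRG1 replicate 2 was left out (adjusted p = 0.0412).

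The ER genes did not move together. Hspa5 and Hsp90b1 are classic targets of the unfolded protein response, which acts through the ER stress element, searched here as CCAAT and CCACG with 9 free bases between them, on both strands. Their promoters and that of Dnajc3, an ER J-domain protein, hold this motif and are shown for that reason, 5′ to 3′, with matches on either strand in capitals (RefSeq, GRCm38.p6). The Hspa5 stretch is chr2:34771990-34772060 on the plus strand, the Hsp90b1 stretch chr10:86705519-86705664 on the minus strand and the Dnajc3 stretch chr14:118937812-118937857 on the plus strand.
Hspa5: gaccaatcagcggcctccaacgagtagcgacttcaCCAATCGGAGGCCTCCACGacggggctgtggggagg
Hsp90b1: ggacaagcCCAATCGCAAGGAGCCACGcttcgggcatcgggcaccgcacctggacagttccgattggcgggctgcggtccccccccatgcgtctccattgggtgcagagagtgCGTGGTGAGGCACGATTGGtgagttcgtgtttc
Dnajc3: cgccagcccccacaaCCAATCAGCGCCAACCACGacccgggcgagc
These 3 were the only ones among the 54 genes with an entry to hold the exact motif in the 250 bases before the start, against 0.13% of all genes with an entry. Hsp90b1 holds it at 2 places, once on each strand.

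Of these 3 genes Hspa5 was lower and Hsp90b1 and Dnajc3 did not pass. Dnajc3, a co-chaperone of BiP that also inhibits the kinase PERK, had 169, 172 and 170.4 CPM in LRG1 libraries, against 173, 180.1 and 175 CPM in PBS libraries, with groups that did not overlap (log2 fold change -0.04, adjusted p = 0.353). Dnajb9 (ERdj4), a J-domain protein strongly induced by ER stress, had 36.6, 39.3 and 42.7 CPM in LRG1 libraries, against 39.4, 40.2 and 39.5 CPM in PBS libraries, with LRG1 libraries on both sides of the PBS values. Dnajb11 (ERdj3), which delivers nascent chains to BiP, had 107, 103 and 108 CPM in LRG1 libraries, against 94.7, 104 and 97.6 CPM in PBS libraries and fell short of the threshold (adjusted p = 0.0616). It passed when PBS replicate 2 was left out (log2 fold change 0.14, adjusted p = 0.0171) and with total count scaling (adjusted p = 0.0319).

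Dnajc10 (ERdj5), a disulphide reductase of ER-associated degradation, had 189.9, 199.9 and 204 CPM in LRG1 libraries, against 206, 216 and 201 CPM in PBS libraries and did not pass. Dnajc1, an ER-membrane J-domain protein at ribosomes, had 61.8, 57.3 and 55.3 CPM in LRG1 libraries, against 61.6, 59.2 and 55.7 CPM in PBS libraries, with overlapping groups. In all, 1 of the 8 ER genes was higher (Hspa13), 1 lower (Hspa5) and 6 not called, so that 25% were called, against 51.4% of all tested genes. Dnajb12, a further gene of the ER membrane, is not in that list. Their median log2 fold change was -0.01, beside 0.01 for all tested genes.

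Most J-domain genes did not pass the test. Of all 38 DNAJ genes, 5 were higher, 4 lower and 29 did not pass, so that 23.7% were called, against 51.4% of all tested genes. In the DNAJC class it was 1 higher, 1 lower and 23 not past the threshold. Dnajc5, the cysteine string protein of secretory vesicles, was the exception in size. It had 282, 289 and 283 CPM in LRG1 libraries, against 479.8, 452 and 474 CPM in PBS libraries, with a wide gap between the groups. LRG1 libraries were 1.65-fold lower (log2 fold change -0.72, SE 0.038, adjusted p = 1.12e-13), with log2 fold changes between -0.74 and -0.70 over the alternatives. The DNAJC sum was 1653 ± 27.8 CPM with LRG1 and 1835 ± 18.9 CPM with PBS, and its gap was about the size of the Dnajc5 gap. Dnajc27, a J-domain protein with a Rab-like GTPase domain, was the other called gene, at 6.92, 8.42 and 8.16 CPM in LRG1 libraries, against 5.21, 5.39 and 6.85 CPM in PBS libraries (log2 fold change 0.43, adjusted p = 0.00845).

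Other J-domain genes of types A and B moved in both directions. Dnajb1 (HSP40), the main stress-inducible partner of HSP70, was 1.19-fold higher, at 68.8, 73.2 and 69.6 CPM in LRG1 libraries, against 55.2, 61.0 and 61.2 CPM in PBS libraries (log2 fold change 0.26, SE 0.052, adjusted p = 0.00023). Its relative Dnajb4 fell, with 66.2, 76.6 and 69.0 CPM in LRG1 libraries, against 91.1, 95.9 and 94.3 CPM in PBS libraries, a 1.33-fold difference without overlap (log2 fold change -0.41, SE 0.052, adjusted p = 4.72e-07). Dnajb12, an ER-membrane protein that recruits cytosolic HSP70 to degradation complexes, had 88.5, 85.5 and 85.6 CPM in LRG1 libraries, against 75.9, 74.8 and 74.9 CPM in PBS libraries, without overlap (log2 fold change 0.20, adjusted p = 0.000469).

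Dnaja4 was 1.37-fold higher, at 18.0, 19.7 and 17.6 CPM in LRG1 libraries, against 12.2, 15.1 and 13.3 CPM in PBS libraries (log2 fold change 0.45, adjusted p = 0.0002), with the reservation of its overlap with Wdr61. Dnaja2 was lower by little, -0.10 on the log2 scale (adjusted p = 0.0317), with 263, 264 and 270.1 CPM in LRG1 libraries, against 287, 284 and 281 CPM in PBS libraries. That call was lost under 7 of 15 alternatives, where the adjusted p reached 0.103. Dnaja1 had 48.9, 47.6 and 47.6 CPM in LRG1 libraries, against 44.5, 45.2 and 42.3 CPM in PBS libraries, higher in every LRG1 library, and did not pass (adjusted p = 0.0517). Dnaja1 passed with total count scaling (adjusted p = 0.0305) and when PBS replicate 2 was left out (adjusted p = 0.0488). The remaining genes that did not pass, Dnajb2, Dnajb5, Dnajb14, Dnajc2, Dnajc4, Dnajc7, Dnajc8, Dnajc9, Dnajc12, Dnajc13, Dnajc14, Dnajc16, Dnajc17, Dnajc18, Dnajc21, Dnajc22, Dnajc24, Dnajc25, Hspa14, Hspb6 and Hspb11, 21 in all, had mean levels of 3.90 to 125 CPM with LRG1 and 4.00 to 122 CPM with PBS, log2 fold changes of -0.16 to 0.13 and adjusted p values of 0.0530 to 0.974.

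The transcription factor itself was slightly higher. Hsf1 had 40.9, 38.2 and 40.2 CPM in LRG1 libraries, against 32.8, 30.4 and 37.1 CPM in PBS libraries, with all LRG1 libraries above all PBS libraries (log2 fold change 0.25, SE 0.068, adjusted p = 0.00356). Hsf2, a related factor, had 28.1, 29.6 and 34.5 CPM in LRG1 libraries, against 27.6, 31.5 and 32.2 CPM in PBS libraries and overlapping groups (log2 fold change 0.01, interval -0.15 to 0.18). HSF1 is controlled mainly at the protein level, which these data do not measure.

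The 19 genes listed as heat-inducible targets of HSF1 moved in both directions, more often down than up. The list also holds Hsp90ab1 and Hspa8, described above as constitutive. It leaves out Dnajb6, which holds the heat shock element shown above and was higher. Of the other genes with the looser motif, it leaves out Dnaja4 and Dnajc27, which were higher, and Dnajc10 and Hspb6, which did not pass. Of the 19, 3 were higher (Hsph1, Dnajb1 and Hsp90ab1), 8 lower (Hspb8, Dnajb4, Cryab, Bag3, Hspa4l, Hspe1, Hspd1 and Hsp90aa1) and 8 not past the threshold. This was 15.8% higher and 42.1% lower, against 25.5% and 25.8% of all tested genes, and 57.9% called, against 51.4%. The list was chosen with earlier results of these data known, so these shares only describe it and were not tested. The median log2 fold change was -0.23, beside 0.01 for all tested genes. Of the 8 lower genes, Hspe1, Hspd1 and Hsp90aa1 are among the 10 with over 10% of stretches copied elsewhere, whose fold changes are uncertain. So are Hspa1a, Hspa1b, Hspa8, Hspb1 and Dnaja1, which did not pass. The 3 higher genes are not. Of the 11 calls, that of Hsp90ab1 was lost under some alternatives and the other 10 were kept under all 15. Of the 8 genes that did not pass, 5 had groups without overlap, against 1036 of 5984 among all tested genes that did not pass. Hspa1a is among the 5, and with LRG1 it met the count rule only in replicate 1. Its place in these counts and in the median therefore rests on its PBS counts. In all 16 of the 19 did not overlap (84.2%), against 57.6% of all tested genes. Among tested genes at or above the median level of the 69 genes it was 68.1%. The partners Hspb8 and Bag3 were both lower, whereas the heat-inducible partners Dnajb1 and Hsph1 were both higher.

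**Figure D3:**
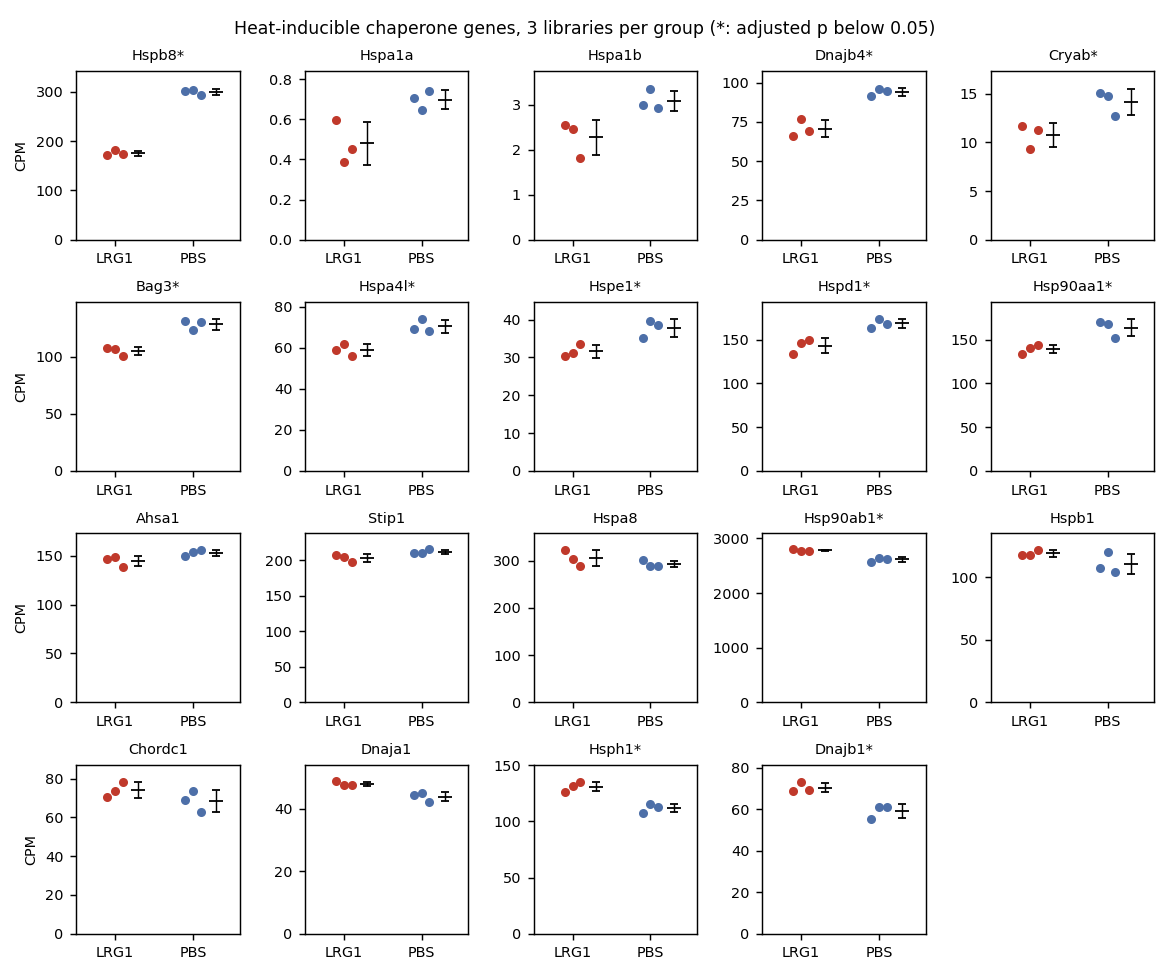
CPM of the 19 genes listed as heat-inducible targets of HSF1, ordered by fold change, LRG1 libraries left and PBS libraries right. Each library is 1 point, with the mean and SD (n = 3) beside the points and an axis from 0 in each panel. An asterisk marks an adjusted p below 0.05. Hspb8, Dnajb4, Bag3 and Hspd1 lie lower with LRG1 and Hsph1 and Dnajb1 higher, while Hspa1a and Hspa1b stay under 4 CPM in every library.

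Other parts of the chaperone system were compared through 5 further lists with 54 genes, of which all but Pfdn6 were tested. Among these 53 genes 10 rose and 8 fell, and 35 were not called (34.0% called, against 51.4% of all tested genes). Among 18 further co-chaperones of HSP70 and HSP90, 4 were higher and 3 lower (38.9% called, against 51.4% of all tested genes). Fkbp5 and Fkbp4 are immunophilins that exchange on the HSP90 complex of steroid receptors, and they went opposite ways. Fkbp5 had 64.7, 64.7 and 66.1 CPM in LRG1 libraries, against 30.7, 28.4 and 27.4 CPM in PBS libraries and was 2.26-fold higher (log2 fold change 1.18, SE 0.056, adjusted p = 1.87e-14), a larger fold than that of any of the 69 genes. Fkbp4 had 211, 206 and 198 CPM in LRG1 libraries, against 279, 284 and 307 CPM in PBS libraries and was 1.41-fold lower (log2 fold change -0.50, SE 0.042, adjusted p = 6.61e-10). Cdc37, which brings kinases to HSP90, was 1.16-fold higher, with 284, 276 and 280.1 CPM in LRG1 libraries, against 235, 237 and 252 CPM in PBS libraries (log2 fold change 0.21, adjusted p = 6.51e-05).

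Mitochondrial partners showed 4 lower, none higher and 6 not past the threshold of 10, or 40% called, against 51.4% of all tested genes. The lower ones were Lonp1, Clpx, Trap1 and Grpel2, and the groups of Grpel2 overlapped (adjusted p = 0.0344). The matrix protease Lonp1 had 255, 264 and 262 CPM in LRG1 libraries, against 366, 336 and 375 CPM in PBS libraries (log2 fold change -0.46, adjusted p = 1.89e-09), and Clpx, the unfolding subunit of another matrix protease, had 47.6, 50.1 and 49.0 CPM in LRG1 libraries, against 63.5, 68.2 and 65.8 CPM in PBS libraries (log2 fold change -0.43, adjusted p = 1.58e-07). Trap1, the mitochondrial HSP90, was 1.13-fold lower, with 159, 159 and 158 CPM in LRG1 libraries, against 183, 175 and 178 CPM in PBS libraries (log2 fold change -0.17, adjusted p = 0.000594). Groups did not overlap for Lonp1, Clpx or Trap1.

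Among 12 ER partners of BiP 4 rose, 1 fell and 7 were not called, or 41.7% called, against 51.4% of all tested genes. Pdia3, a disulphide isomerase for glycoproteins, had 1199.6, 1179.8 and 1238 CPM in LRG1 libraries, against 942, 1011 and 929 CPM in PBS libraries (log2 fold change 0.33, adjusted p = 2.32e-07). Sec63, the J-domain protein of the translocon, was 1.2-fold higher (log2 fold change 0.26, adjusted p = 8.29e-06) and Hyou1, the HSP110 of the ER, 1.17-fold higher (log2 fold change 0.22, adjusted p = 0.00016). Few genes of the cytosolic folding machines for actin and tubulin were called. In the chaperonin TRiC/CCT, 1 of 8 subunit genes passed (12.5%, against 51.4% of all tested genes). This was Cct2, with 448, 462 and 470.0 CPM in LRG1 libraries, against 427, 423 and 418 CPM in PBS libraries (log2 fold change 0.12, adjusted p = 0.00799). In prefoldin 1 of 5 passed (20%), Pfdn1 (log2 fold change 0.17, adjusted p = 0.00828). No member of either was lower and past the threshold.

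**Figure D4:**
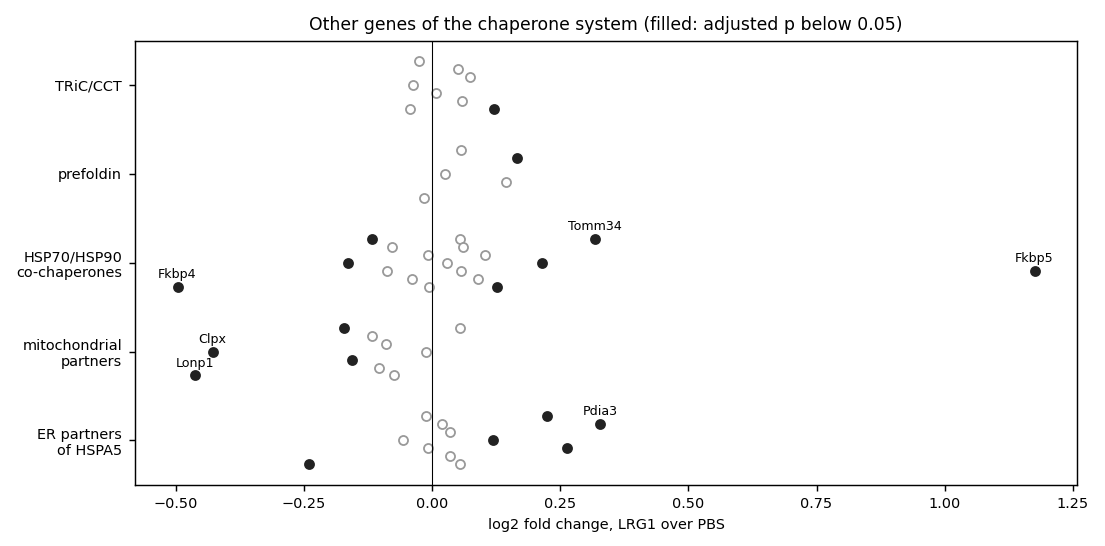
Log2 fold change, LRG1 over PBS, of 53 tested genes in 5 further lists of the chaperone system, 1 point per gene, with vertical offsets for legibility. Filled points passed an adjusted p of 0.05 and genes beyond 0.3 either way are named. Fkbp5 stands alone at 1.18, and the called mitochondrial partners lie below 0.

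Of the 83 genes, 14 had too few counts to be described by a fold change, and none of them was tested. No count was seen for 6 of them, Dnajb7, Dnajb8, Dnajc5b, Dnajc5g, Hspb3 and Hspb9. Hspb7, a small heat shock protein of heart and muscle, had 6, 6 and 6 counts in LRG1 libraries and 1, 0 and 1 in PBS libraries. Hspa1l, a neighbour and relative of Hspa1a, had 1, 0 and 1 counts with LRG1 and 2, 4 and 4 with PBS. The others, Dnajb3, Dnajb13, Dnajc6, Hspa12a, Hspa12b and Hspb2, had 10 or fewer counts in every library. Hspa12a came closest to the rule among these, with 3, 4 and 10 counts in LRG1 libraries and 3, 1 and 3 in PBS libraries.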

How the data were processed

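Each library has 1 deposited file of raw counts per gene, as whole reads, made by the authors with bcl2fastq, TopHat2 and HTSeq on the mouse build mm9, per the submitters' processing notes. Versions, annotation and strand setting are not known here. The RNA was poly(A)-selected, the kit marks the strand, and reads were 50 nt from 1 end, per the labels' protocols. The 5 summary rows of HTSeq were left out. Among them, the row for alignments without a unique place held 58.2 to 59.3% of each file total.

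Genes were filtered by edgeR's filterByExpr (minimum count 10), which kept 12301 of 22609. LRG1 was compared with PBS, with treatment as the sole term, by edgeR 4.0.16 (R 4.3.3) with TMM scaling, the quasi-likelihood F test and Benjamini-Hochberg adjustment over all tested genes (threshold 0.05). "Adjusted p" refers to this test unless another setting is named. CPM use the same TMM scaling. SE and 95% intervals were derived from the log2 fold change, the F statistic and the degrees of freedom of that test. Replicates of a group differed by more than sampling noise (chi-square per degree of freedom 2.88 to 4.13). The code was tested on simulated data.

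The genes and lists were chosen with earlier results of these data known. Values in every library are given for the heat-inducible, ER and mitochondrial lists, the 10 highest and 10 lowest called genes and the 5 most abundant, and Dnaja2, Dnajb12 and Hsf2 were added after their values were seen. Of each further list up to 3 genes with the smallest p were taken. Exon lengths and shared stretches came from GENCODE M21 and promoters from RefSeq, both on GRCm38, and no coordinates were joined to the counts. The alternatives changed the scaling (size factors, upper quartile, total counts), the filter (none, or 1 CPM in 3 libraries) or the test (DESeq2 1.42.0, limma-voom with limma 3.58.1, a robust fit), added a replicate block or left out each library in turn.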

Additional observations from a re-analysis of the deposited data

How the results depend on the processing

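Over 15 alternatives, 24 of the 26 called chaperone genes kept their direction and their side of the threshold. The exceptions were Hsp90ab1 and Dnaja2, each lost under 7. The count of higher genes was 12, or 11 to 18 with 1 library left out, and that of lower genes 14, or 13 to 14. The 18 came without PBS replicate 2, and total count scaling gave 17. Over all tested genes 6317 were called, or 5630 to 6015 with 1 library left out and 5594 by DESeq2. Among the further lists 9 to 11 rose and 6 to 8 fell with 1 library left out. The median log2 fold change of the 69 genes was -0.02, or -0.05 to 0.0046 with 1 library left out.

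The alternatives were run for 48 of the 69 genes one by one. Among these 48, signs turned for 5 genes close to 0 that did not pass, and the cause was not tested. Dnajb9 had a log2 fold change of 0.0099 with total count scaling, and -0.064 to 0.040 with 1 library left out. Dnajc1 ranged over -0.068 to 0.016, Dnajc11 over -0.011 to 0.058, Dnajc28 over -0.16 to 0.033 and Hsf2 over -0.073 to 0.068 with 1 library left out. Deviations of same-numbered libraries from their group means correlated at -0.160, -0.0627 and -0.165. With 3 libraries per group, deviations from the group mean depend on each other, so these values cannot tell whether libraries were paired. With the replicate block 11 genes were higher and 13 lower, the 2 lost being Hsp90ab1 and Dnaja2, and 5890 of all genes were called. For scarce genes such as Hspa1a, with 9 to 14 counts a library, the depth limits what can be told.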
